A study of Mus musculus with 6 samples.

Results

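Shbg, Trf, Cst12 and Dhh encode secreted products of Sertoli cells. They are 4 of the 3257 genes analysed, taken by symbol from a single table that the authors deposited, and each symbol stood on 1 row. The genes were proposed with the result of the wild-type and knockout comparison known, and the table itself holds genes selected on these libraries. Their values in that comparison are therefore given as a description, with no test.

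RNA was sequenced from primary Sertoli cells of mice on the C57BL/6 background, enriched by plating for 24 h. The wild-type group held 3 libraries from wild type cells that had been given an empty plasmid by infection. The UXT KO group held 3 libraries from cells of UXT KO animals, which had been infected with CRE recombinase in a viral construct. UXT (also ART-27) is a small prefoldin-like cofactor of transcription, and the question was which transcripts differ when it is lost. Both groups went through 2 infections of 24 h each. No wild-type library received Cre, so the loss of UXT and the Cre construct cannot be told apart. No label tells if replicates were separate animals or cultures, so the spread given here may be technical. Uxt was not in the authors' deposited table, where all genes analysed had a fold of 1.5 or more and an adjusted p under 0.05. Its transcript was thus not listed as changed. Whether it was unchanged, too low or not measured cannot be told, so the knockout could not be checked on its own transcript.

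Sertoli cells line the seminiferous tubule, nurse the germ cells and seal them behind the blood-testis barrier, so much of what germ cells receive is first secreted by Sertoli cells. Shbg encodes androgen-binding protein, which Sertoli cells release into the tubule fluid and which holds testosterone there. Trf encodes transferrin, the carrier that brings iron to germ cells behind the barrier. Cst12 encodes a cystatin of the CRES subgroup of cysteine protease inhibitor relatives, expressed in the reproductive tract. Dhh encodes desert hedgehog, the ligand through which Sertoli cells signal to Leydig and peritubular myoid cells outside the tubule by way of the receptor Ptch1. Follicle-stimulating hormone and androgen are the classical hormones that act on Sertoli cell secretion.

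The 4 genes lie on 4 chromosomes, in coordinates of GENCODE M21 on GRCm38, the same assembly as the mm10 build named in the submitters' processing notes. Shbg (gene ID 20415) lies on the minus strand of chromosome 11, from 69614804 to 69617905. Trf (gene ID 22041) lies on the minus strand of chromosome 9, from 103204001 to 103230444, and overlaps the annotated gene Gm20425 on the same strand. Cst12 (gene ID 69362) lies on the plus strand of chromosome 2, from 148789361 to 148793546. Dhh (gene ID 13363) lies on the minus strand of chromosome 15, from 98891152 to 98898540, and overlaps Rhebl1 on the same strand and Gm49442 on the other. Where the counting shared reads between overlapping genes, the values of Trf and Dhh are uncertain.

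Since the 4 transcripts were all lower in the knockout, the sequence before each start site is shown, from RefSeq on GRCm38.p6. The table of promoters held 3 of the 4 genes, Shbg, Cst12 and Dhh. Each stretch begins 250 bases before the start site and ends before the first base that RefSeq or GENCODE places in a transcript. Both strands were searched for 8 motifs: the steroid hormone response half-site AGAACA, the GATA motif GATAA, the SOX motif ACAAT, the nuclear receptor half-site AGGTCA, the GC box GGGCGG, the cyclic AMP response half-site TGACG, the E-box CANNTG and the TATA box TATAAA. Capitals mark the matches. The stretches are chr11:69618027-69618155 (minus strand), chr2:148789115-148789360 (plus strand) and chr15:98898563-98898790 (minus strand).
Shbg: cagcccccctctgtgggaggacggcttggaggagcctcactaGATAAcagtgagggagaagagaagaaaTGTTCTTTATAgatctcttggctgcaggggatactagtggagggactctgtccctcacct
Cst12: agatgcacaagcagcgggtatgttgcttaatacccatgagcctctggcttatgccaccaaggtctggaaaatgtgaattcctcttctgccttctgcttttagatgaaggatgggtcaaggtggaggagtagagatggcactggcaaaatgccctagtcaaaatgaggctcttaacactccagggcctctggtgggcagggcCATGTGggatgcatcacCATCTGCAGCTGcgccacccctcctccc
Dhh: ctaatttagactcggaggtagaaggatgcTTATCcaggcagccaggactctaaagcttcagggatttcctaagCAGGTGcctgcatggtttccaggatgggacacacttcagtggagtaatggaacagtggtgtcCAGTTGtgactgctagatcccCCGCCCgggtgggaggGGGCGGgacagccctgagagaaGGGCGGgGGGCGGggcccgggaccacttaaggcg

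The 3 stretches had no motif in common. In the 129 bases of Shbg there was 1 steroid hormone response half-site, 181 bases before the start site. It was read on the strand opposite to the sequence printed above. Of the 32851 promoters in the RefSeq table, 8.93% held that half-site in a window of the same length and place. The same stretch held 1 GATAA (13.8% of promoters) and 1 TATAAA (6.43%). The TATAAA was also on the opposite strand and shared a base with the steroid hormone response half-site. Cst12 held 3 E-boxes in its 246 bases, 49, 32 and 26 bases before the start site, and 65.8% of promoters held at least 1 there. Dhh held 4 GC boxes in its 228 bases (29.5% of promoters held at least 1), 2 E-boxes (63.2%) and 1 GATAA (21.4%). The SOX motif, the nuclear receptor half-site and the cyclic AMP response half-site were in none of the 3 stretches. Bases G and C made up 53.5% of the Shbg, 53.3% of the Cst12 and 59.2% of the Dhh stretch, against a median of 52.4% over the 250 bases before all start sites. These are matches of letters only, and no binding was measured.

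All 4 genes were lower in the knockout in the authors' deposited table, in which 67.9% of the 3257 genes were lower. In each of the 4 the 3 knockout values lay below the 3 wild-type values, as they did in 65.8% of all genes. Since the genes were chosen with this contrast known, nothing is read from these counts. In bulk samples such as these, fewer Sertoli cells and less RNA of these genes per cell cannot be told apart. The authors' values per library are on a log2 scale, and fold sizes are those of the authors' own comparison.

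Shbg, the androgen carrier, had log2 values of 7.21, 7.24 and 7.12 in wild-type replicates 1, 2 and 3, and of 5.86, 5.90 and 5.86 in knockout replicates 1, 2 and 3. The lowest wild-type value stood 1.22 above the highest knockout value, and libraries within a group lay within 0.12 of each other. The group means were 7.19 ± 0.06 and 5.87 ± 0.03 (SD, n = 3 each). Shbg was 17.2-fold lower in the authors' deposited table, where it ranked 30th by size among the 2210 lower genes.

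Trf, the iron carrier, had log2 values of 14.07, 14.29 and 14.18 in wild-type replicates 1, 2 and 3, and of 12.26, 12.52 and 12.49 in knockout replicates 1, 2 and 3. The gap between the groups was 1.55, and knockout replicate 1 was the lowest library. The means were 14.18 ± 0.11 and 12.42 ± 0.15 (SD, n = 3 each). Trf was 6.33-fold lower in the authors' deposited table, and its wild-type value was higher than that of most genes analysed, at percentile 96.8.

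Cst12, the cystatin relative, had log2 values of 10.29, 10.51 and 10.58 in wild-type replicates 1, 2 and 3, and of 8.28, 8.75 and 8.75 in knockout replicates 1, 2 and 3. The groups were separated by 1.54, and knockout replicate 1 again stood below the other knockout libraries. The means were 10.46 ± 0.15 and 8.59 ± 0.27 (SD, n = 3 each). Cst12 was 7.94-fold lower in the authors' deposited table.

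Dhh, the hedgehog ligand, had log2 values of 10.63, 10.80 and 10.79 in wild-type replicates 1, 2 and 3, and of 8.48, 9.03 and 9.17 in knockout replicates 1, 2 and 3. The groups were separated by 1.46. The knockout libraries of Dhh spanned 0.69, the widest range in either group of the 4 genes. The means were 10.74 ± 0.10 and 8.90 ± 0.36 (SD, n = 3 each), and Dhh was 5.67-fold lower in the authors' deposited table.

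**Figure D1:**
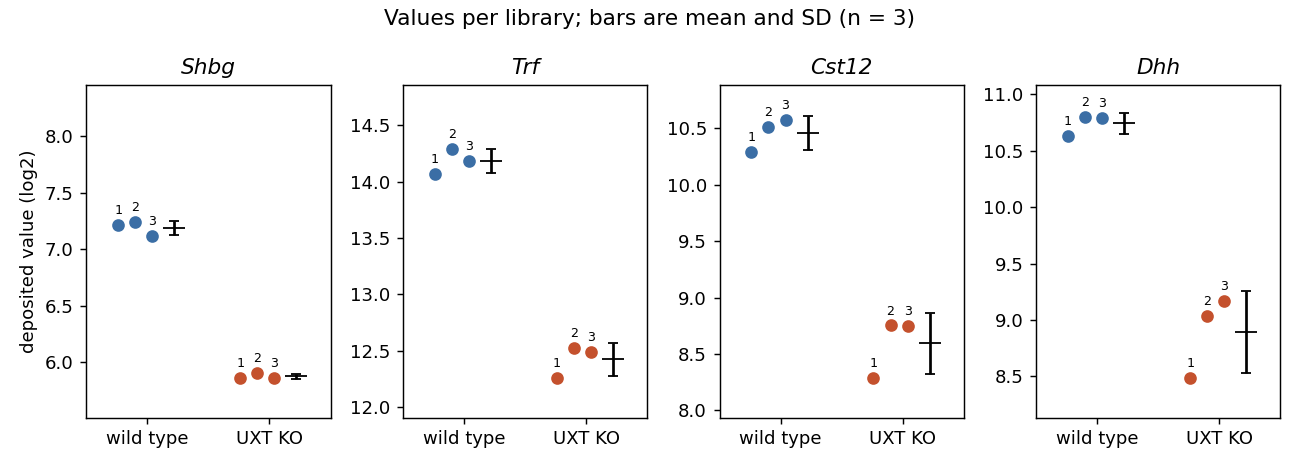
Deposited log2 value of Shbg, Trf, Cst12 and Dhh in each library (points, numbered by replicate), with the mean and SD of each group (n = 3) beside them; each vertical axis spans the same number of log2 units. In each panel the 3 knockout libraries lie below the 3 wild-type libraries, with knockout replicate 1 lowest for Trf, Cst12 and Dhh.

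Shbg had the largest fold of the 4 genes in the authors' deposited table. The deposited values gave smaller differences than the authors' fold, and the more so the lower the level of the gene. For Shbg the difference between group means was 0.321 of the log2 fold that the authors' deposited table gave, for Trf it was 0.659, for Cst12 0.624 and for Dhh 0.738. The median ratio was 0.243 in the quartile of genes with the lowest values, where Shbg lies, 0.614 in the quartile of Cst12 and Dhh, and 0.654 in the highest quartile, that of Trf. Sizes of differences are therefore not compared between the 4 genes on the scale of the values. Whether the values or the authors' fold lie nearer the true size was not tested.

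**Figure D2:**
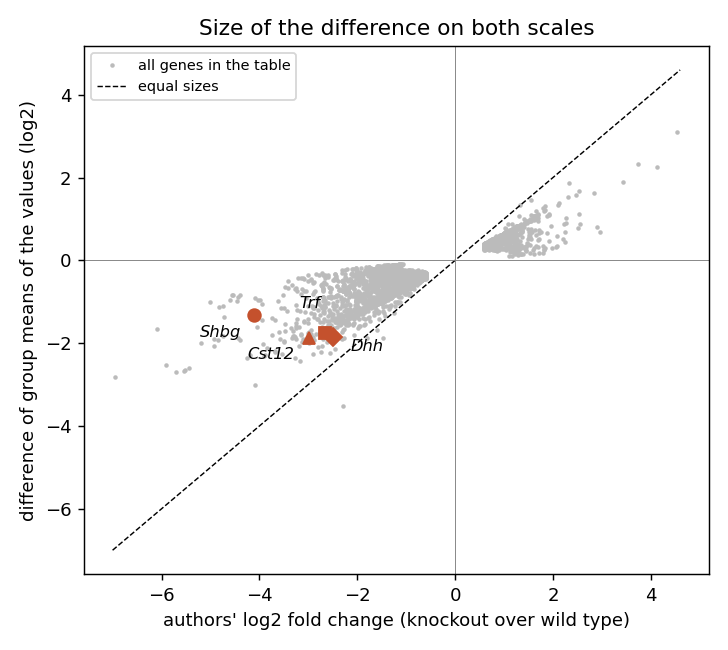
Difference between knockout and wild-type means of the deposited values (log2, vertical) against the authors' deposited log2 fold change (horizontal), for all genes analysed (grey) and the 4 secreted products (red). Points above the dashed line on the lower left have a smaller difference in the values than in the authors' fold, and Shbg is the farthest of the 4 from that line.

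The spread between replicates was not alike in the 4 genes. In knockout cells the SD of Dhh stood at percentile 97.1 of all genes analysed, that of Cst12 at 92.3, that of Trf at 68.3 and that of Shbg at 8.57. At low levels the differences were small beside the authors' fold, and whether the spread of the values is reduced there too was not tested. The median SD over all genes was 0.0931 in wild-type and 0.102 in knockout libraries on the log2 scale. Most of the spread came from knockout replicate 1, which lay 0.17 below the knockout mean for Trf, 0.31 below it for Cst12 and 0.41 below it for Dhh.

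Knockout replicate 1 also had the lowest median over all genes, at 8.82 against 8.88 and 8.91 in the other knockout libraries. After subtracting each library's median, it still lay below the knockout mean, with deviations of -0.12 for Trf, -0.26 for Cst12 and -0.36 for Dhh, and of 0.04 for Shbg. Among the 2210 lower genes it was the lowest knockout library in 44.6%. Without knockout replicate 1 the difference between group means on the log2 scale went from -1.76 to -1.67 for Trf, from -1.86 to -1.71 for Cst12 and from -1.85 to -1.64 for Dhh. Wild-type replicate 1 was likewise the lowest wild-type library for Trf, Cst12 and Dhh, by smaller amounts, and Shbg shared neither feature.

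**Figure D3:**
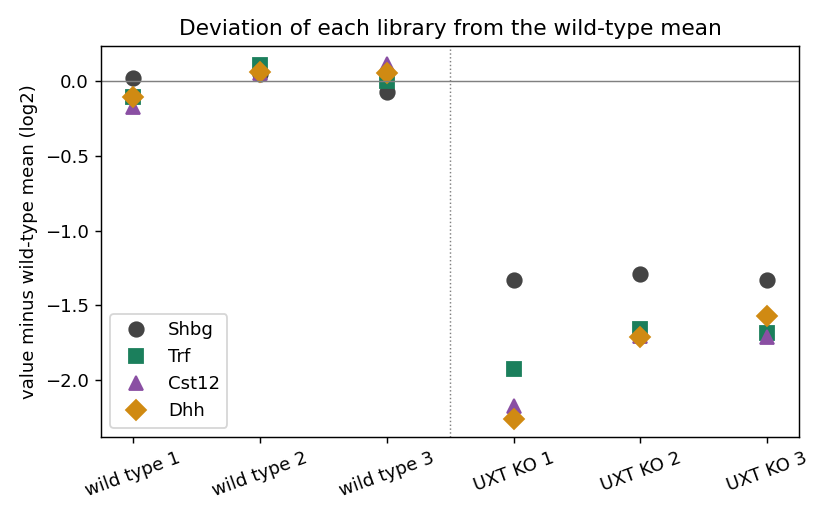
Deviation of each library from the wild-type mean of the gene (log2 units) for Shbg, Trf, Cst12 and Dhh. Trf, Cst12 and Dhh are lowest in UXT KO 1, but replicates 2 and 3 of a group do not stand in the same order in all of them. Shbg is nearly level across the 3 knockout libraries, and the depth of its fall is not comparable with theirs on this scale.

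Among Trf, Cst12 and Dhh, the closest values were those of Cst12 and Dhh. Likeness was measured as the root mean square difference over the 6 libraries between log2 values with each gene's wild-type mean subtracted. It was 0.0768 between Cst12 and Dhh, which made Dhh the third most like Cst12 and Cst12 the fifth most like Dhh of 3256 genes. Trf lay 0.120 from Cst12 and 0.150 from Dhh. The measure includes the size of each gene's fall, and the genes were proposed with the result known, so nothing is read from their likeness. The deposited values gave the smallest differences beside the authors' fold at low levels, so the distances of Shbg from the other 3 are not compared.

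Among all genes, the most like Cst12 were Nat8l, an acetyltransferase that makes N-acetylaspartate (0.0604), and the thioredoxin-like gene Nxnl2 (0.0743), followed by Dhh. The most like Dhh were the folate receptor gene Folr1 (0.0665), Nat8l (0.0680) and Atp1b1, a subunit of the sodium pump (0.0728). The most like Trf were Scel, which encodes sciellin (0.0669), Nxnl2 (0.0702) and Alas2, the erythroid enzyme that opens haem synthesis (0.0866). The most like Shbg were the cathepsin gene Ctss (0.0530), the retinol transporter gene Stra6 (0.0617) and the endothelial transcription factor gene Erg (0.0617). The genes most like Shbg were found on the scale of the values, and likeness there does not mean a like fold in the authors' deposited table. These neighbours were unstable: without wild-type replicate 1, without knockout replicate 1 or after quantile normalization, none of the 3 genes most like Shbg stayed among its first 3. For Dhh, none of the 3 stayed without wild-type replicate 2.

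Levels were set side by side per length, by subtracting the log2 of each gene's exonic length in kb from its value. The exonic lengths were 1506 bases for Shbg, 3320 for Trf, 655 for Cst12 and 4399 for Dhh. On this scale the wild-type means were 12.45 for Trf, 11.07 for Cst12, 8.61 for Dhh and 6.60 for Shbg. Knockout cells had the same order, with 10.69, 9.21, 6.76 and 5.28. Neighbours in this order differed by more than the SD between replicates in both groups. Before the correction for length Dhh stood above Cst12. The correction treats the deposited values as plain log2 abundance, although their transformation is not known, so only the order is given weight and the position of Shbg, the gene with the lowest values, is the least certain.

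The other genes were tested with limma on all 3257 genes, with Benjamini-Hochberg adjustment. A gene was called when its limma adjusted p was under 0.05 and the authors' deposited table gave it a fold of 1.5 or more. By this rule 67.5% of all genes were called lower and 32.1% higher, and 99.6% were called in either direction, since the table was selected on these libraries. Counts in the lists below are to be read against those shares. Quantile normalization between libraries moved the median difference over all genes from -0.40 to -0.07 on the log2 scale, and the share of calls that were lower from 67.8% to 52.2%. After it 1143 of the 3257 genes were called lower and 1047 higher, and counts after quantile normalization are to be read against these. Under it the 4 secreted products were still lower, with differences of -0.88 for Shbg, -1.52 for Trf, -1.63 for Cst12 and -1.62 for Dhh.

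Other secreted products of Sertoli cells were mostly lower as well. Of 63 listed genes, 36 were among the genes analysed, and 32 were called lower and 3 higher. In the authors' deposited table their median log2 fold was -1.12, beside -0.88 over all genes. Cst11, another cystatin, fell 7.67-fold, the protease gene Mmp9 4.69-fold, the growth factor gene Bmp4 4.53-fold, Amh, the anti-Müllerian hormone, 4.04-fold and the lipoprotein gene Apoe 4.02-fold in the authors' deposited table. Apoe went from 12.15 ± 0.27 to 10.83 ± 0.21 (SD, n = 3 each), with a limma adjusted p of 7.10e-05. Amh no longer passed after quantile normalization (limma adjusted p = 0.108).

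The secreted products that rose were Fgf2, a growth factor (2.45-fold), the gelatinase gene Mmp2 (2.13-fold) and Inhba, the beta-A subunit of inhibin and activin (1.75-fold in the authors' deposited table). Inhba was high in every library, with log2 values of 15.58, 15.39 and 15.44 in wild-type and 16.09, 16.00 and 15.92 in knockout cells. Inha, the alpha subunit that pairs with it in inhibin, fell 3.09-fold in the authors' deposited table, its values going from 12.24 ± 0.25 to 10.99 ± 0.35 (SD, n = 3 each), with a limma adjusted p of 2.46e-04. The retinol carrier gene Rbp4 was the only gene of the lists that did not pass (limma adjusted p = 0.128). Its log2 values were 6.57, 6.28 and 7.33 in wild-type and 6.25, 6.50 and 6.29 in knockout cells, and the groups overlapped.

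Among the receptors and transcription factors that act on Sertoli cell genes, 7 of 38 were analysed, with 6 called lower and 1 higher. The median of these 7 was -1.51 in the authors' deposited table. Wt1, a zinc finger factor that Sertoli cells need to keep their identity, fell 4.47-fold, from 12.39 ± 0.11 to 10.99 ± 0.10 (SD, n = 3 each), with a limma adjusted p of 4.53e-06. Gata1 fell 6.04-fold, Rhox5 3.25-fold, Dmrt1 2.86-fold, Rhox8 2.35-fold and Sox9 1.81-fold in the authors' deposited table. Of these, all but Sox9 had values below the lower quartile of mean level (6.83). The mean of Gata1 went from 4.87 to 4.46. Thrb, which encodes a thyroid hormone receptor, was 2.50-fold higher in the authors' deposited table. Dmrt1, Rhox5 and Rhox8 no longer passed after quantile normalization (limma adjusted p = 0.349, 0.475 and 0.422).

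Dmrt1 also missed the threshold without knockout replicate 1 (limma adjusted p = 0.0666). Wild-type replicate 2 carried much of its difference, which went from -0.39 to -0.21 without that library, and that of Rhox8 went from -0.17 to -0.10. Rhox8 missed it without any one of wild-type replicates 2 and 3 and the 3 knockout libraries (limma adjusted p from 0.0578 to 0.0878), and without the mean-variance trend (limma adjusted p = 0.0871). All genes analysed had a fold of 1.5 or more and an adjusted p under 0.05 in the authors' deposited table. The follicle-stimulating hormone receptor gene Fshr was not among them. Whether it was unchanged, too low or not measured cannot be told here. The same holds for the other listed genes that were not analysed.

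For the partners of Shbg, genes of steroid carriage, uptake and metabolism moved both ways. Of 35 listed, 11 were analysed, with 5 called lower and 5 higher, and a median of -0.93 in the authors' deposited table. Akr1c14, a 3-alpha-hydroxysteroid dehydrogenase, fell 4.10-fold and the corticosteroid reductase gene Hsd11b1 2.92-fold in the authors' deposited table. Hsd11b2 and Apod were lower in the authors' deposited table, 2.26-fold and 1.90-fold, but both turned after quantile normalization (limma differences of 0.013 and 0.12). Their wild-type means, 4.39 and 5.80, lay below the lower quartile of mean level (6.83). Srd5a2, the 5-alpha-reductase that converts testosterone to dihydrotestosterone, was 3.25-fold higher in the authors' deposited table. Its log2 values were 4.81, 4.82 and 4.84 in wild-type and 5.21, 5.27 and 4.99 in knockout cells (limma adjusted p = 0.00328).

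Akr1c18, which inactivates progesterone, rose 17.5-fold and the steroid synthesis gene Hsd3b1 5.003-fold in the authors' deposited table. Hsd3b1 is also a Leydig cell marker, and without the markers of other cell types 2 genes of this list were called higher. The 3 Leydig cell markers analysed (Cyp11a1, Hsd3b1 and Star) of 7 listed all rose. Their summed level, which is the log2 of the sum of their linear values, lay between 15.15 and 15.35 in wild-type and between 15.71 and 16.04 in knockout libraries. The part of this in the result was not tested.

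For the partners of Trf, 12 of 40 genes of iron uptake, storage and export were analysed, with 9 called lower and 3 higher, and a median of -1.15 in the authors' deposited table. Tfr2, the second transferrin receptor, was 4.74-fold lower in the authors' deposited table. Its log2 values were 9.19, 9.09 and 9.15 in wild-type and 7.72, 8.18 and 7.57 in knockout cells (limma adjusted p = 7.30e-05). Lcn2, a carrier of iron-binding siderophores, fell 9.64-fold, the ferroxidase genes Hephl1 and Cp (ceruloplasmin) 8.30-fold and (for Cp) 2.70-fold, and the metal transporter gene Slc11a1 2.87-fold in the authors' deposited table. After quantile normalization these 5 were still called lower and the other 4 of the 9 were not. Hephl1 lay below the lower quartile of mean level (6.83), with means of 6.02 in wild-type and 5.28 in knockout cells.

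The 3 iron genes that rose act in export, haem breakdown and storage. Slc40a1, which encodes the iron exporter ferroportin, rose 3.26-fold, Hmox1, the haem oxygenase, 2.93-fold and the ferritin light chain gene Ftl1 1.61-fold in the authors' deposited table. Slc40a1 went from 8.35 ± 0.04 to 9.30 ± 0.35 and Ftl1 from 14.75 ± 0.06 to 15.20 ± 0.16 (SD, n = 3 each). The limma adjusted p was 5.19e-04 for Slc40a1 and 0.00222 for Ftl1. The widely expressed receptor Tfrc was not analysed here.

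For the family of Cst12 and the cathepsins that classical cystatins inhibit, 14 of 30 genes were analysed, and all 14 were called lower, with a median of -1.004 in the authors' deposited table. Besides Cst11, Ctss fell 4.39-fold, the kininogen gene Kng2 3.41-fold, Ctsk 2.46-fold and the cystatin gene Cst9 2.37-fold in the authors' deposited table. Means in wild-type and knockout were 4.94 and 4.49 for Cst11, 5.30 and 4.92 for Kng2 and 2.97 and 2.86 for Cst9. All of these means lay below the lower quartile of mean level, 6.83. Ctss went from 10.40 ± 0.11 to 9.12 ± 0.06 (SD, n = 3 each), with a limma adjusted p of 6.33e-06. After quantile normalization 7 of the 14 were called lower, 6 cathepsins and Cst11. Kng2, Cst9 and Cst3 no longer passed (limma adjusted p = 0.356, 0.546 and 0.0849). Ctss is also abundant in macrophages, whose 9 markers analysed of 10 listed were all called lower. The summed level of these markers lay between 14.57 and 14.92 in wild-type and between 13.10 and 13.36 in knockout libraries, and its part in the result was not tested.

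For the pathway of Dhh, 6 of 32 hedgehog genes were analysed, with 4 called lower and 2 higher, and a median of -1.23 in the authors' deposited table. Scube3 and Scube2, secreted proteins of the family that helps release hedgehog ligands from the cell, were lower in the authors' deposited table, by 3.40-fold and 2.65-fold. Scube3 had log2 values of 9.06, 9.39 and 9.13 in wild-type and 7.90, 7.83 and 8.53 in knockout cells (limma adjusted p = 5.16e-04). Gpc3, a glypican that binds hedgehog ligands, fell 2.82-fold in the authors' deposited table. Evc2, a ciliary protein of hedgehog signal transduction, was higher by 1.75-fold in the authors' deposited table.

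The forkhead genes Foxf1 and Foxf2, known hedgehog targets in mesenchyme, went opposite ways, 2.07-fold lower and 2.21-fold higher in the authors' deposited table. After quantile normalization Foxf1 turned (limma difference 0.093, adjusted p = 0.435) and Scube2 no longer passed (limma adjusted p = 0.604). The receptors and nuclear effectors Ptch1, Smo, Gli1, Gli2 and Gli3 were not among the genes analysed.

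**Figure D4:**
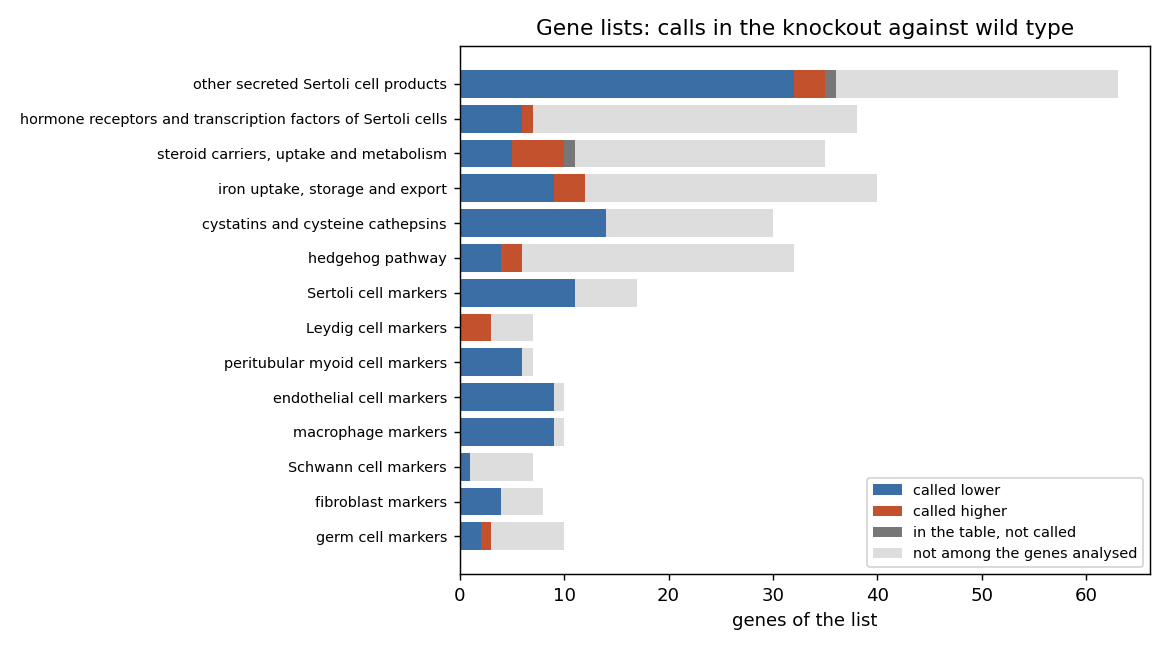
Number of genes in each list that limma called lower (blue) or higher (red) in the knockout, did not call (dark grey) or that were not among the genes analysed (light grey). The share called lower was 45.5% of the steroid genes, 66.7% of the hedgehog genes and 75.0% of the iron genes, against 67.5% of all genes. It was 85.7% of the receptors and transcription factors, 88.9% of the other secreted products and all 14 cystatins and cathepsins. After quantile normalization 7 of these 14 were called lower, against 1143 of all 3257 genes.

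The genomic neighbours of the 4 genes were looked at within 200 kb, and the neighbours named were chosen after their values were seen. Of all protein-coding genes in GENCODE M21, 13.9% were among the genes analysed. Around Cst12, in the cystatin cluster of chromosome 2, 4 of 12 protein-coding neighbours were analysed and all 4 were called lower. The nearest, 8030411F24Rik, lies 3.42 kb away (148782009 to 148785937). It fell 7.68-fold in the authors' deposited table, with values going from a mean log2 value of 9.47 to 7.71 (limma adjusted p = 1.92e-05). Cst11, 17.9 kb away, fell 7.67-fold, Cst9, 41.6 kb away, 2.37-fold, and Cst3, 78.2 kb away, 1.54-fold in the authors' deposited table. Of these, Cst11 and Cst9 lay below the lower quartile of mean level. Cst3 and Cst9 no longer passed after quantile normalization (limma differences of -0.18 and -0.021), and Cst9 did not pass without the mean-variance trend (limma adjusted p = 0.121). Cystatins of this cluster resemble each other in sequence. Where reads matched several copies, the separate values of these genes are uncertain, and this was not tested.

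Around Shbg, 9 of 23 protein-coding neighbours were analysed, with 7 called lower and 2 higher. After quantile normalization 3 of the 7 were still called lower, Atp1b2, Cd68 and Fgf11. Atp1b2, a subunit of the sodium pump, ends 8.86 kb away and fell 12.9-fold in the authors' deposited table, its values going from a mean log2 value of 10.49 to 8.30 (limma adjusted p = 1.94e-06). Sat2, on the other side and 4.12 kb away, was 1.73-fold lower in the authors' deposited table. It did not pass after quantile normalization (limma difference -0.012). Around Dhh, 3 of 18 were analysed, with 1 called lower and 2 higher. The lower gene, Ccdc65, turned after quantile normalization (limma difference 0.16). Kmt2d, the nearest of the 3 to Dhh and higher, missed the threshold without wild-type replicate 1 or 2 or knockout replicate 3 (limma adjusted p from 0.0508 to 0.0875), and its difference went from 0.40 to 0.23 without that knockout library. Around Trf 1 of 8 was analysed, Slco2a1, a prostaglandin transporter gene 108 kb away. It was lower by 1.70-fold in the authors' deposited table.

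**Figure D5:**
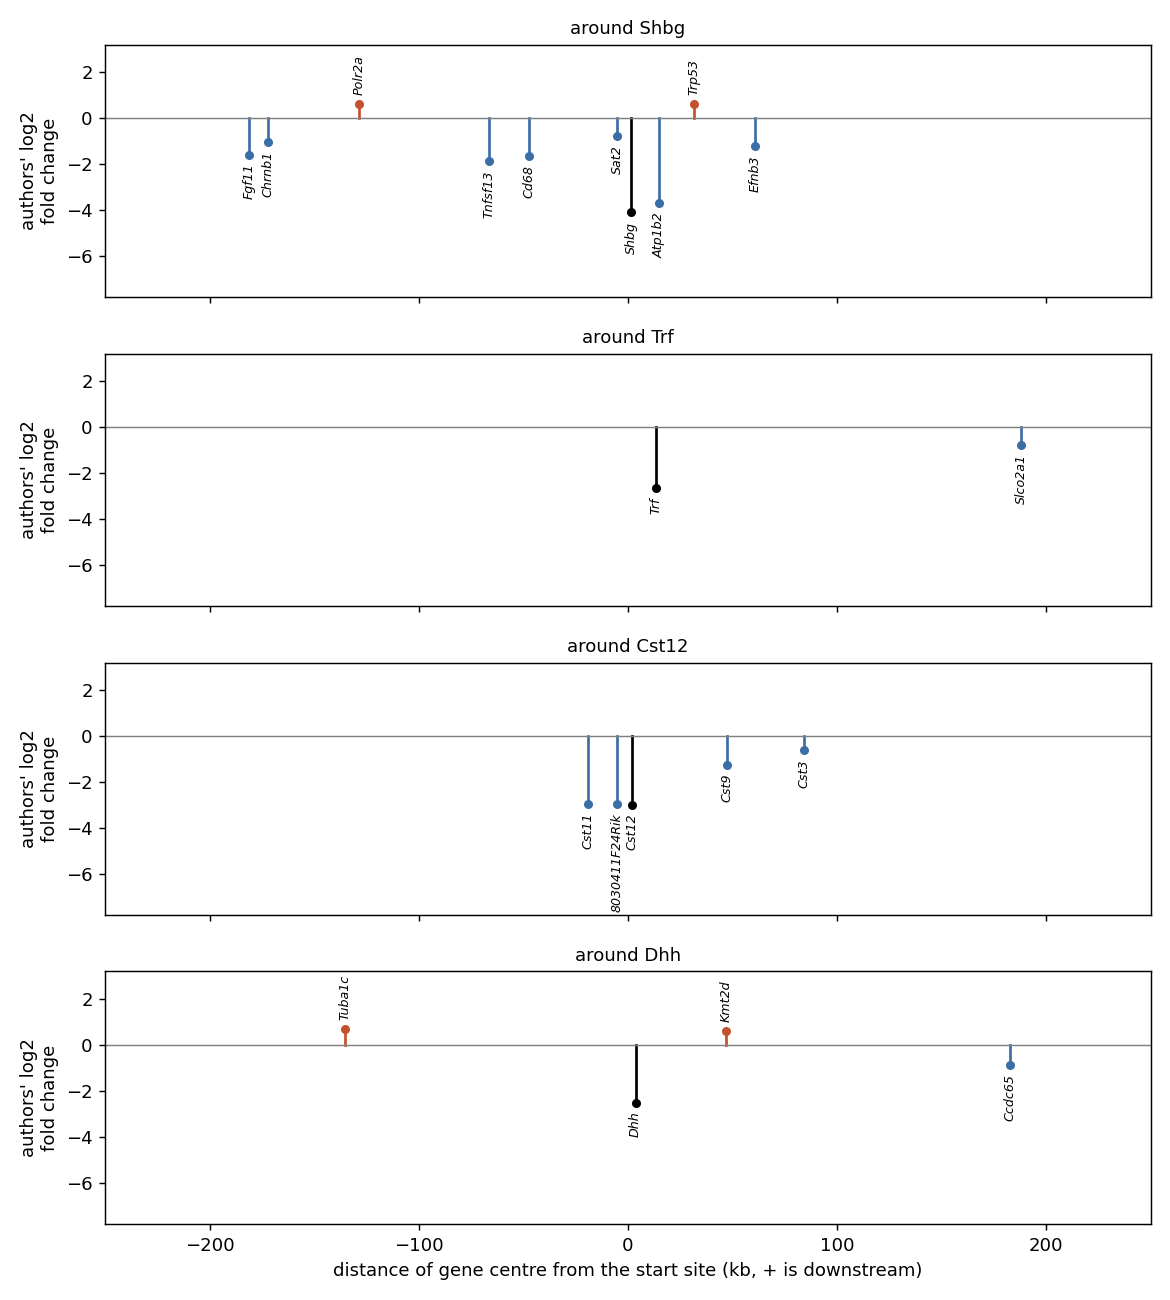
The authors' deposited log2 fold change of Shbg, Trf, Cst12 and Dhh (black) and of the genes analysed within 200 kb (blue lower, red higher), against the distance of each gene's centre from the start site of the secreted product in kb. The neighbours of Cst12 and Trf analysed are all lower, those of Shbg lie on both sides of 0 with Atp1b2 lowest and the nearer Sat2 less far below 0, and those of Dhh are 1 lower and 2 higher.

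The cells were checked against markers of Sertoli cells and of other testis cells. Of 17 Sertoli cell markers 11 were analysed, and all 11 were called lower. Gata4, Fshr, Nr5a1, Krt18 and Vim were among those not analysed here. Besides the factors and hormones above they were Aard (5.07-fold), the tight junction gene Cldn11 (3.83-fold), the chaperone gene Clu, which encodes clusterin (3.07-fold), and Kitl, the ligand of the germ cell receptor Kit (1.60-fold in the authors' deposited table). Clu had the highest level of them, with wild-type libraries at 16.85 ± 0.26 and knockout libraries at 15.68 ± 0.28 (SD, n = 3 each). After quantile normalization 7 of the 11 were called lower, and Kitl (limma adjusted p = 0.0605) was lost beside Amh, Dmrt1 and Rhox5. The summed level of Sertoli cell markers lay between 16.86 and 17.31 in wild-type and between 15.69 and 16.14 in knockout libraries, again lowest in replicate 1 of each group. Most of this sum was Clu alone, at 16.56 in wild-type replicate 1 and 15.36 in knockout replicate 1.

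Markers of other cells moved too, and their part in the values of the 4 genes was not tested. All 9 endothelial markers analysed of 10 listed were called lower, with a summed level of 12.80 to 12.92 in wild-type and 11.82 to 12.13 in knockout libraries. Macrophage markers were lower as given beside the cathepsins. The 6 peritubular myoid markers analysed of 7 were lower (18.97 to 19.29 and 18.49 to 18.69), as were the 4 fibroblast markers of 8 (20.44 to 20.60 and 19.38 to 20.12). Endothelial and Schwann cells are also known to make Dhh. Of 7 Schwann cell markers only S100b was analysed, and it was lower (7.29 to 7.42 and 6.60 to 6.96). Of 10 germ cell markers 3 were analysed, 2 lower and 1 higher (11.61 to 12.08 and 12.14 to 12.39). After quantile normalization 8 of the 9 endothelial, 8 of the 9 macrophage, 4 of the 6 myoid and 2 of the 4 fibroblast markers were called lower, and S100b was not. No value of the genes analysed was listed at 0.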

How the data were processed

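Messenger RNA of 6 libraries (3 wild type, 3 UXT KO) was measured. Per the submitters' processing notes, which give no version, FastQC, STAR and DESeq2 were used with build mm10. The read counter, annotation, use of strand and transformation are not given in the sources used here. A single table was deposited by the authors, consisting of 3261 rows with, per the file headers, a signed fold score, a log2 fold change, p-values, adjusted p-values and a log2 value per library. The smallest fold analysed was no less than 1.5, and the largest adjusted p-value was 0.0499 in the authors' deposited table. The symbols on 2 rows (2 symbols, 4 rows) were left out, which left 3257 genes. No counts were used, so depth is unknown and no counting interval was computed.

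Groups came from the sample titles. Differences were tested with limma 3.58.1 (R 4.3.3) with a mean-variance trend and no covariate, two-sided. In simulated data on 3257 genes for this comparison, it called 65 of 100 genes changed by 0.5 on the log2 scale, 93 of 100 changed by 1, and 7 of 3057 unchanged genes. The members and lists were chosen with earlier results of these data known. Named genes were the 4 products, every called gene of a list with at most 8 calls (otherwise the 5 lower and 3 higher with the largest fold), the Sertoli cell markers and the 3 genes most like each product. Some genes that this rule names are not reported here. Alternatives were quantile normalization, a replicate block, no trend, only genes above the lower quartile of mean level (which leaves out Shbg, so 3 of the 4 products passed), an adjusted p of 0.01, group medians and leaving out each library. Leaving out markers of other cell types was added after seeing the data. Exonic lengths came from GENCODE M21 and promoters from RefSeq.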

Additional observations from a re-analysis of the deposited data

How the results depend on the processing

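Quantile normalization had the widest effect. Under it 1143 genes were called lower, against 2200, and 1047 higher, against 1044. The differences of Shbg, Trf and Cst12 became -0.88, -1.52 and -1.63, each a move of more than the SD between replicates, and stayed negative. The genes called lower became 3 of the receptors and transcription factors, 3 of the steroid list, 5 of the iron list, 7 of the cystatins and cathepsins and 2 of the hedgehog list. The differences of Apod (0.12), Foxf1 (0.093), Hsd11b2 (0.013) and Ccdc65 (0.16) changed sign, and 13 other named genes and neighbours of 61 no longer passed. Above the lower quartile of mean level, where fewer genes were tested, 2 receptors and transcription factors, 3 steroid genes and 2 hedgehog genes were called lower and 1 hedgehog gene higher. Without markers of other cell types, 2 steroid genes were called higher. The cause of the other changes was not tested.

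With each library left out in turn, between 2085 and 2158 genes were called lower and between 1014 and 1034 higher. The differences ranged from -1.35 to -1.29 for Shbg, -1.81 to -1.67 for Trf, -1.95 to -1.71 for Cst12 and -1.99 to -1.64 for Dhh. Among the neighbours, Efnb3 missed the threshold when any single library other than wild-type replicate 1 was left out (limma adjusted p from 0.0853 to 0.160, and its difference went from -0.23 to -0.36 without that one). With the replicate number as a block, 2207 genes were called lower and 1045 higher, and no named gene lost its call. No label tells if equal replicate numbers mark paired samples, and correlations over these selected genes cannot settle it. Deviations from the group means of same-numbered libraries correlated across genes at 0.18, -0.07 and -0.004. Wild-type replicate 2 correlated most with knockout replicate 3 (0.20). The depth of the libraries is unknown, so what it limits could not be given.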
